A study of Homo sapiens with 4 samples.

Results

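The granins and the enzymes that process prohormones are the genes described here: VGF, CHGA, CHGB, SCG2, SCG3, SCG5, PCSK1, PCSK2 and CPE, 9 of the 36359 genes in the count table. They were picked by gene symbol. VGF was brought in for its large fall after PRR11 knockdown in these libraries, and the other genes were brought in as its family and its processing enzymes. RNA-seq was performed on ACHN, a long-established line of human renal carcinoma cells, transfected with Lipofectamine 3000 and either a control siRNA (siNC, 2 libraries) or siPRR11 (2 libraries). PRR11 is the proline-rich protein that the study silenced to find its downstream signals. The labels do not say whether the 2 libraries of a group came from separate cultures, so that p-values measure the spread between these libraries only, which may be technical. They also do not say which siPRR11 duplex was used.

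Granins are acidic proteins that are packed into dense-core vesicles, the storage granules of endocrine and neuronal cells. Inside these granules, the convertases PCSK1 and PCSK2 cut prohormones and granins at pairs of basic residues, and carboxypeptidase E (CPE) removes the basic residues that remain. VGF is a granin-like precursor of secreted peptides that is known for its induction by neurotrophins in neurons. Cyclic AMP signaling reaches such genes through CREB proteins, which bind the cAMP response element.

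Because the results turn on VGF, the promoters were read first. RefSeq promoter windows (GRCh38.p14, 250 bases before to 50 bases after a start site) were found for 7 of the 9 genes, with 2 windows each for PCSK1 and PCSK2, and none was analysed here for CHGB and SCG2. The full cAMP response element, TGACGTCA, occurred in the windows of VGF, CHGA and PCSK1. It was present in 1.85% of all 35116 windows, counting both strands, which for this palindrome read alike. The 60 bases around each match are shown 5′ to 3′ on the strand of the gene, because this element is what the 3 windows share, and capitals mark it. They lie at chr7:101165615-101165674 (minus strand) for VGF, chr14:92923070-92923129 (plus strand) for CHGA and chr5:96433292-96433351 (minus strand) for PCSK1.
VGF: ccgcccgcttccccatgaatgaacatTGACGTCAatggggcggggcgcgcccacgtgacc
CHGA: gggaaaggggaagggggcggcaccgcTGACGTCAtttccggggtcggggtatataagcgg
PCSK1: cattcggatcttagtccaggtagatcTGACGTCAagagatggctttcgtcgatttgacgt

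In VGF the element lay at bases -79 to -72 from the start site and was the core of a perfect palindrome of 14 bases. In CHGA it lay at -54 to -47 and in PCSK1 at -77 to -70, and in both the palindrome ended with the 8 bases of the element. The core TGACG, which overlaps the full element on either strand, was found in 24.6% of all windows and in at least one window of all 7 genes. The GC box GGGCGG (45.0% of all windows) occurred at 4 places around the VGF start site, on both strands, and TATAAA (11.5% of all windows) occurred at -32, on the strand opposite to the gene. TCAGCACC, a part of the site bound by the repressor REST (1.67% of all windows), was found in the window of SCG3 and in no other of the 9 windows. The start sites used here lie 24 bases from the 5′ end of VGF in the count table, 70 bases for CHGA and 895 bases for PCSK1, while that of CPE is 17814 bases away. A match to these letters describes the window and does not show binding.

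**Figure D1:**
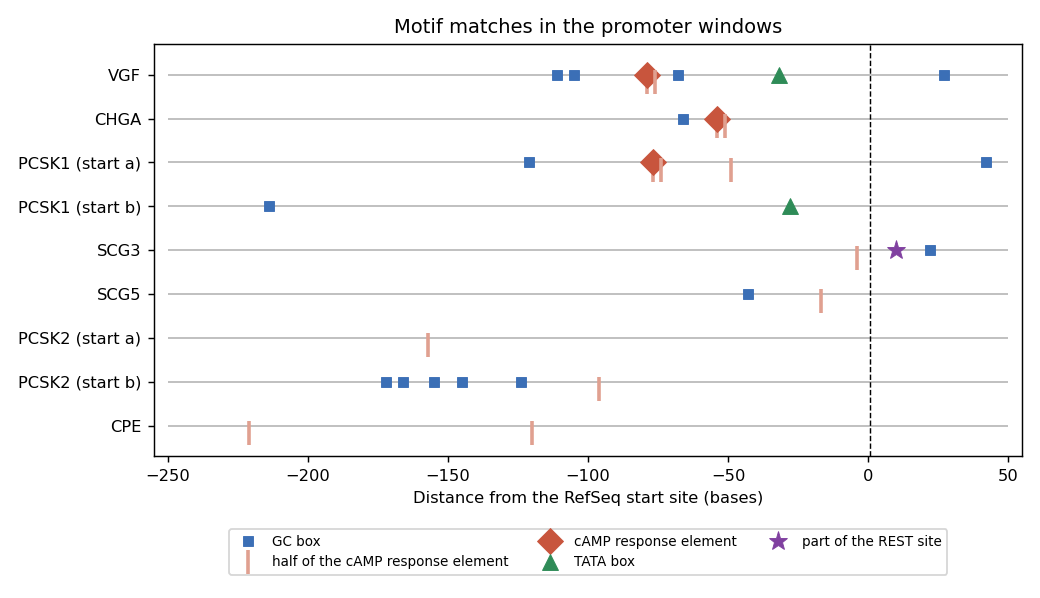
Motif matches on either strand in the 9 RefSeq promoter windows of 7 genes, by distance of their first base from the start site (x axis, bases; dashed line at the start site; a and b are the 2 start sites of PCSK1 and PCSK2). The full cAMP response element is seen in VGF, CHGA and one window of PCSK1.

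The libraries held 59003839 to 92612749 counted reads. Of the counts between 1 and 20, 76.5% to 78.1% were even numbers, against 52.5% to 53.2% of counts between 1000 and 3000. Whether both mates of a pair were counted was not tested, and the low counts below may stand for fewer fragments. PRR11, the targeted gene, was at 41.3 and 40.4 CPM (counts per 1000000 reads, with library sizes scaled by TMM factors) in siNC and at 15.3 and 14.0 CPM in siPRR11, which is 35.9% of the control mean. Markers of the renal lineage were present, with PAX8 between 252.6 and 374.8 CPM, and among the renal markers KRT18 rose and EPCAM and LHX1 fell in siPRR11 (edgeR adjusted p between 0.000257 and 0.0444). LHX1 was not called without siPRR11 library 1 or without siNC library 2. The 10 renal markers summed to 3566 and 3246 CPM in siNC and 3476 and 3370 CPM in siPRR11. The neuroendocrine regulator NEUROD1 lay at 0 to 0.0489 CPM, and the leukocyte marker PTPRC at 0 to 0.069 CPM. Of 6 markers of other cell types 3 could be tested, and DES, a muscle filament protein, rose from 0.563 and 0.483 to 1.68 and 1.61 CPM (edgeR adjusted p = 0.00118). MYH11 lay at 4.73 to 6.07 CPM and ALB at 0.897 to 1.13 CPM, and neither was called (edgeR adjusted p = 0.416 and 0.764). The 13 neuroendocrine markers in the table summed to 420.8 to 456.6 CPM in siNC and 441.7 to 454.2 CPM in siPRR11, mostly from L1CAM, TUBB3 and ENO2. The part of these markers in the results was not tested.

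Of the 9 genes, 7 had enough counts to be tested (edgeR's filterByExpr), and CHGA and PCSK2 had not. The quasi-likelihood test of edgeR, after Benjamini-Hochberg adjustment over 21630 genes, called 16.7% of all genes (adjusted p below 0.05), 7.61% higher and 9.14% lower in siPRR11. Fold changes are given as log2FC, siPRR11 minus siNC, with the standard error (SE). Among the 7 tested genes 2 were called, VGF and CHGB, both lower. VGF entered through this same comparison, so this count and the log2 fold changes below are a description, and no p-value is attached to them. Of the 7 genes, 4 (VGF, CHGB, SCG5 and PCSK1) lay lower in both siPRR11 libraries than in both siNC libraries. This was seen in 29.3% of all genes tested, and groups without overlap in either direction in 58.4%, so nothing is read from that count. The median log2FC was -0.26 over the 7 genes and 0.00 over all genes tested.

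VGF showed the largest change of the 7. It occupies bases 101162509 to 101165593 of chromosome 7 (GRCh38, minus strand) with 3 exons, and no exon of another gene overlaps them in the count table. VGF had 6147 and 3909 counts in siNC and 1467 and 1490 counts in siPRR11, or 75.2 and 67.4 CPM against 15.6 and 17.4 CPM. Both siPRR11 libraries were far below both siNC libraries, and the gap between the groups was wider than the gap within either. The mean went from 71.3 ± 5.51 to 16.5 ± 1.32 CPM (SD, n = 2 each), so that 23.1% of the control level remained. Its log2FC was -2.11 (SE 0.0952), which ranks 2 by size of fall among 14193 genes whose mean log2 CPM reached 1, in the comparison VGF was chosen from. Fits that omitted a single library gave -2.20 to -2.03. In bulk RNA, fewer cells expressing a gene and less RNA per cell cannot be told apart.

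CHGB encodes chromogranin B, a granin that is stored in the granule core. It occupies bases 5911430 to 5925361 of chromosome 20 (plus strand, 6 exons). It was at 29.6 and 28.4 CPM in siNC and at 13.8 and 11.9 CPM in siPRR11. The groups did not overlap, and 44.5% of the control mean remained (log2FC -1.17, SE 0.102). Omitting a single library gave -1.28 to -1.07.

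SCG5 encodes a chaperone that PCSK2 needs in order to mature, and lies on chromosome 15 from 32641676 to 32697098. It was at 14.5 and 16.9 CPM in siNC and at 12.1 and 14.1 CPM in siPRR11. The groups did not overlap, but the highest siPRR11 library lay only just below the lowest siNC library. With all 4 libraries and condition as the only term, SCG5 was not called (log2FC -0.26, SE 0.117). With the replicate number as a further term, SCG5 was called (log2FC -0.26, SE 0.0869). Its log2FC was -0.37 without siNC library 1, where it was called, and -0.15, -0.15 and -0.38 without siNC library 2, siPRR11 library 1 and siPRR11 library 2, where it was not. The exons of an antisense gene cover 0.501% of the exonic bases of SCG5.

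The remaining granins were close to the limit of detection. SCG2, the precursor of secretoneurin, had 22 and 14 counts in siNC and 18 and 24 counts in siPRR11, and the groups overlapped. SCG3, which helps to sort granins into granules, had 38 and 4 counts in siNC and 30 and 20 counts in siPRR11. Its siNC libraries lay on both sides of its siPRR11 libraries. The log2FC was -0.13 (SE 0.471) for SCG2 and -0.03 (SE 0.623) for SCG3, and that of SCG3 was 1.98 without siNC library 1 and -0.75 without siNC library 2. CHGA, encoding chromogranin A, the classical marker of neuroendocrine cells, had 0 and 4 counts in siNC and 4 and 2 counts in siPRR11. No fold change is given for CHGA at this depth.

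Among the processing enzymes, CPE was measured best. CPE lies on chromosome 4 from 165361194 to 165498320 and was at 5.52 and 4.97 CPM in siNC and 5.41 and 6.20 CPM in siPRR11. Its groups overlapped (log2FC 0.14, SE 0.136). The convertase PCSK1 had 22 and 18 counts in siNC and 20 and 8 counts in siPRR11. After scaling, this gave 0.269 and 0.310 CPM against 0.212 and 0.0935 CPM, with no overlap. PCSK1 was not called (log2FC -0.89, SE 0.534). The log2FC was -0.44 without siPRR11 library 2 and -1.61 without siPRR11 library 1. PCSK2 had 0 counts in all 4 libraries, which allows up to 0.0318 to 0.0517 CPM per library (3 counts, for counting error only).

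**Figure D2:**
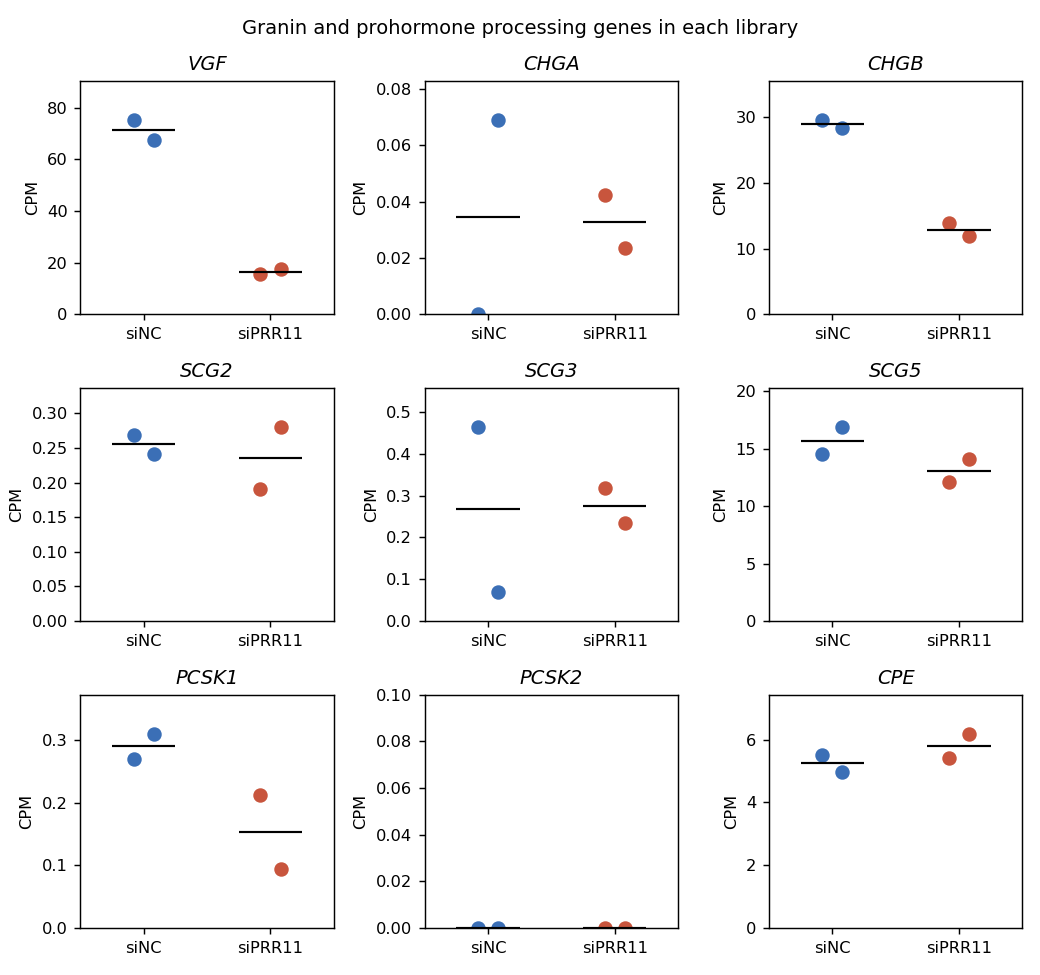
CPM of each gene (y axis, linear from 0, a scale of its own in each panel) in the 2 siNC and 2 siPRR11 libraries, with points for libraries and a line for their mean. VGF and CHGB are separated widely between the groups, while CHGA, SCG2, SCG3 and PCSK1 lie under 0.5 CPM and PCSK2 at 0 in all libraries.

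To compare the genes with each other, the deposited RPKM values, which are scaled by exonic length, were used. In siNC cells VGF stood highest at 27.4 and 24.5 RPKM, above 91.4% of all genes tested. SCG5 followed with 6.50 and 7.57 RPKM and CHGB with 6.42 and 6.14 RPKM, and the difference between their means was smaller than the spread of SCG5. CPE came next at 1.84 and 1.65 RPKM, below all libraries of CHGB. SCG2, SCG3, PCSK1 and CHGA were at 0.138 RPKM or less in both libraries, and their order was not resolved. In siPRR11 cells VGF was at 5.86 and 6.54 RPKM and SCG5 at 5.60 and 6.53 RPKM, so that their levels were no longer separated. CHGB was then at 3.11 and 2.67 RPKM and CPE at 1.86 and 2.13 RPKM. VGF accounted for 64.5% and 61.2% of the summed RPKM of the 9 genes in siNC and for 35.2% and 36.2% in siPRR11. The sum itself was 42.4 and 40.1 RPKM in siNC and 16.6 and 18.1 RPKM in siPRR11.

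**Figure D3:**
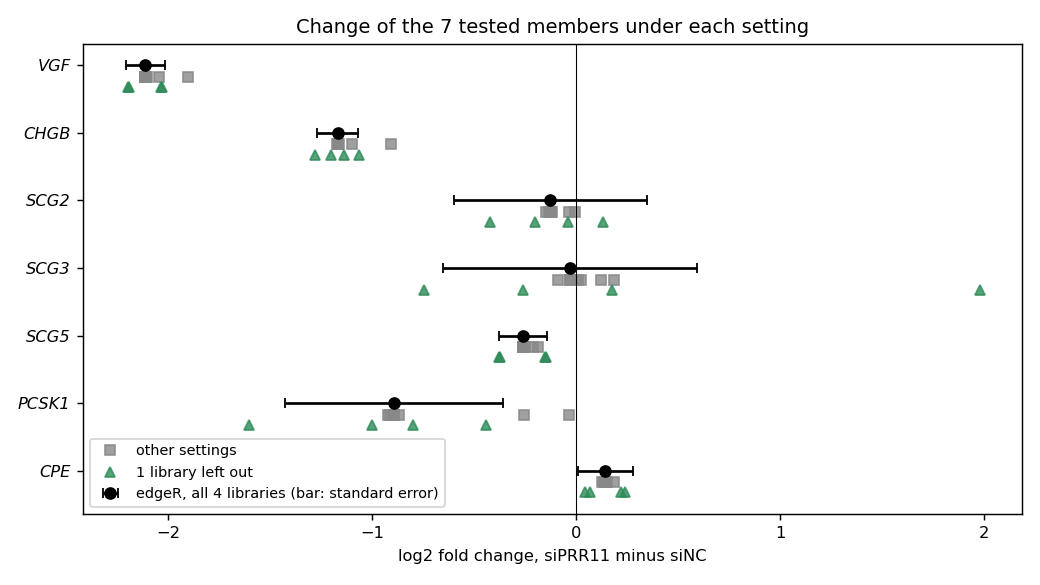
The log2FC (x axis) of the 7 tested genes, with edgeR estimates and SE in black, other settings as grey squares and fits without 1 library as green triangles. VGF and CHGB stay below 0 in every fit shown, while SCG2, SCG3 and PCSK1 spread widely.

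Genes within 50000 bases of VGF were examined to see whether they moved with it. AP1S1, encoding a subunit of an adaptor complex of the trans-Golgi network, ends 912 bases from VGF and was at 126.1 and 122.2 CPM in siNC and 108.8 and 115.1 CPM in siPRR11. It was not called (log2FC -0.15, SE 0.0736, edgeR adjusted p = 0.198), though its groups did not overlap. On the other side, NAT16 had 13 to 28 counts (log2FC -0.37, edgeR adjusted p = 0.648). PLOD3, a lysyl hydroxylase that modifies collagen, lay between 43.3 and 49.8 CPM (log2FC -0.11, edgeR adjusted p = 0.43). MIR4653, inside the span of AP1S1 and with 4 to 14 counts, had a log2FC of -1.75 (SE 0.662, edgeR adjusted p = 0.0958), was called by limma on log2 RPKM (adjusted p = 0.0397 and 0.0271 for pseudocounts 1 and 0.1), and cannot be separated from AP1S1 reads on the same strand. MOGAT3 had 2 counts in a single library and was not tested.

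The 5 genes whose profile over the 4 libraries was nearest to that of VGF were HES7, STEAP1, KRT15, AK5 and KIAA1644, with distances of 0.17, 0.36, 0.43, 0.44 and 0.51 in log2 CPM centred on each gene. STEAP1 was at 4.44 and 4.47 CPM in siNC and 1.26 and 1.05 CPM in siPRR11. KRT15 was at 16.9 and 17.4 CPM in siNC and 3.03 CPM in both siPRR11 libraries. The measure spans 4 libraries, so it mostly finds genes with a fall of similar size.

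Other enzymes and inhibitors of peptide maturation were followed next, from lists of genes for each step. Of 8 tested genes for amidation, cyclization and carboxypeptidase activity, with PCSK1N among them, 3 rose and none fell (median log2FC 0.04). This was 37.5% of a short list, beside 16.7% of all genes called, and nothing is read from it. Carboxypeptidase M, whose gene symbol is also CPM, rose from 11.6 and 11.5 to 19.5 and 17.0 CPM units (log2FC 0.66, SE 0.104, edgeR adjusted p = 0.00144). CPZ, a secreted carboxypeptidase, rose from 0.759 and 0.569 to 1.64 and 1.39 CPM units (edgeR adjusted p = 0.00896). QPCT, the glutaminyl cyclase that closes the first residue of many peptides, rose from 10.6 and 9.28 to 14.3 and 13.1 CPM units (log2FC 0.46, edgeR adjusted p = 0.0163), and was not called without siPRR11 library 1 (adjusted p = 0.125). On log2 RPKM with pseudocount 1, limma gave an adjusted p-value of 0.0541 for QPCT. PAM, the amidating enzyme, was abundant at 220.4 to 260.8 CPM units, and was not called (log2FC -0.09, edgeR adjusted p = 0.496). PCSK1N, the precursor of an inhibitor of PCSK1, was at 0.0849 to 0.172 CPM units.

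Of the 7 other proprotein convertases, which mostly act outside the granules in the secretory route of most cells, 1 was called (median log2FC 0.14). This was 14.3% of the list, beside 16.7% of all genes. FURIN, the convertase of the trans-Golgi network, fell from 14.0 and 14.5 to 9.98 and 9.71 CPM (log2FC -0.53, SE 0.102, edgeR adjusted p = 0.00435). On log2 RPKM, limma gave adjusted p-values of 0.0596 and 0.0511 for FURIN with pseudocounts 1 and 0.1. MBTPS1 was the most abundant of these enzymes at 103.1 to 122.0 CPM, and was not called (log2FC 0.16, edgeR adjusted p = 0.167).

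The machinery of dense-core vesicles and regulated exocytosis was represented by 49 tested genes. Of these, 11 fell and 4 rose (30.6% called, beside 16.7% of all genes and 23.1% of genes whose mean log2 CPM reached 1), and the median log2FC was -0.05. The count was 7 without siPRR11 library 1 and 8 without siPRR11 library 2. RAB27B, a GTPase that docks secretory granules, fell from 4.53 and 5.12 to 2.61 and 2.55 CPM (log2FC -0.90, SE 0.152, edgeR adjusted p = 0.00213). SYT1, a calcium sensor of vesicle fusion, fell by 0.59 on the log2 scale (SE 0.127), and STX1A, a SNARE protein of the plasma membrane, fell by 0.52 (SE 0.106). TBC1D5, a regulator of endosomal sorting, fell by 0.56 (SE 0.0929). In the other direction, NSF, the ATPase that takes SNARE complexes apart, rose from 54.3 and 50.9 to 73.4 and 70.8 CPM (log2FC 0.45, SE 0.0779). RAB3D and SV2A, proteins of secretory vesicles, rose by 0.35 and 0.29 on the log2 scale. For these 6 genes after RAB27B, the edgeR adjusted p lay between 0.00181 and 0.0215. On log2 RPKM, limma called SYT1, STX1A and TBC1D5 with neither pseudocount, 1 or 0.1 (adjusted p between 0.0523 and 0.109). It did not call RAB27B with pseudocount 0.1 or RAB3D with pseudocount 1 (adjusted p = 0.0575 and 0.0551), and called NSF and SV2A with both. RAB3D and SV2A were not called without siPRR11 library 1 or 2, STX1A without siPRR11 library 1 and SYT1 without siPRR11 library 2 (adjusted p between 0.0535 and 0.136).

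Among 29 tested precursors of hormones and neuropeptides, many of them substrates of such enzymes, 4 rose and 3 fell (median log2FC 0.16). The share called was 24.1%, beside 16.7% of all genes and 23.1% of genes whose mean log2 CPM reached 1. The count was 3 without siPRR11 library 1, 2 without siPRR11 library 2 and 11 without siNC library 1. ADM, the precursor of adrenomedullin, rose from 1.24 and 0.897 to 3.10 and 2.57 CPM (log2FC 1.39, SE 0.218, edgeR adjusted p = 0.00137). IGF2 rose from 10.96 and 10.59 to 17.25 and 17.27 CPM (log2FC 0.68, SE 0.098, edgeR adjusted p = 0.000839). NTF3, a neurotrophin, rose by 0.36 on the log2 scale (edgeR adjusted p = 0.0229). STC2 and NUCB1 fell by 0.37 and 0.29 on the log2 scale (edgeR adjusted p = 0.00864 and 0.0198). On log2 RPKM, limma called neither STC2 nor NUCB1 with pseudocount 1 or 0.1 (adjusted p between 0.0536 and 0.0875), and NTF3 only with 0.1. These 2 genes and NTF3 were not called without siPRR11 library 1 or 2, and NTF3 also not without siNC library 2 (adjusted p between 0.055 and 0.154). BDNF, a neurotrophin known to induce VGF in neurons, was at 51.9 and 52.4 CPM in siNC and 60.1 and 60.5 CPM in siPRR11 (edgeR adjusted p = 0.0824).

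A list of cAMP, CREB, neurotrophin and REST regulators, chosen by gene name, was followed next. Whether these genes act on VGF or the granins in ACHN cells was not tested. Of 37 tested genes, 7 fell and 4 rose (median log2FC -0.09), and fewer were called without siPRR11 library 1 or 2. The share called was 29.7%, beside 16.7% of all genes and 23.1% of genes whose mean log2 CPM reached 1. CREM, which encodes activators and repressors that bind the cAMP response element, fell from 12.8 and 9.73 to 6.91 and 6.50 CPM (log2FC -0.75, SE 0.138, edgeR adjusted p = 0.00343). The phosphodiesterases PDE4A and PDE4D, which break down cAMP, fell by 0.57 and 0.43 on the log2 scale, and PKIA, an inhibitor of protein kinase A, fell by 0.50. SIK1, a kinase that restrains CREB coactivators, rose from 7.84 and 9.07 to 13.6 and 15.2 CPM (log2FC 0.77, SE 0.116, edgeR adjusted p = 0.0011). SORT1, a sorting receptor for neurotrophins, rose by 0.59, ATF1, a relative of CREB, by 0.38 and ADCY9, an adenylate cyclase, by 0.37 on the log2 scale. The adjusted p-values of these 6 genes ranged from 0.00168 to 0.02 (edgeR). On log2 RPKM, limma called CREM, PDE4A, PDE4D and ADCY9 with neither pseudocount, 1 or 0.1 (adjusted p between 0.0547 and 0.235). It called SIK1, SORT1 and PKIA with both, and ATF1 only with 0.1. PDE4D was not called without siPRR11 library 1 or 2, ADCY9 without siPRR11 library 1 and ATF1 without siPRR11 library 2 (adjusted p between 0.0692 and 0.225). CREB1 itself was not called (log2FC -0.06, edgeR adjusted p = 0.715), and REST was at 49.1 and 58.6 CPM against 47.0 and 47.1 CPM (edgeR adjusted p = 0.186). The neurotrophin receptors NTRK2 and NTRK3 had at most 2 counts in a library.

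A separate list held 13 tested target genes of CREB and of immediate early signaling, and 0 of them were called by edgeR, DESeq2 or limma. CREM, SIK1 and PDE4D were placed in the list of regulators above, so this 0 does not cover them. NR4A2 and PER2 had an unadjusted p-value under 0.05 in edgeR (2 genes, median log2FC of the list -0.10). Several of the 13 genes followed the replicate number and not the siRNA. FOS was at 9.62 and 1.79 CPM in siNC libraries 1 and 2 and at 8.38 and 1.73 CPM in siPRR11 libraries 1 and 2. EGR1 showed the same arrangement, with 12.2 and 4.66 CPM and 10.8 and 4.35 CPM. VGF did not share it, since library 1 was the higher of the siNC pair and the lower of the siPRR11 pair. Without siNC library 1 or 2, 4 and 3 of the 13 genes were called, and without siPRR11 library 1 or 2, 3 and 2 genes. Genes with a full cAMP response element in a promoter window, a group formed after the values were seen, numbered 412 among those tested. Of these, 42 rose and 49 fell, and their median log2FC was -0.04. The share called was 22.1%, beside 16.7% of all genes tested and 23.1% of those whose mean log2 CPM reached 1.

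**Figure D4:**
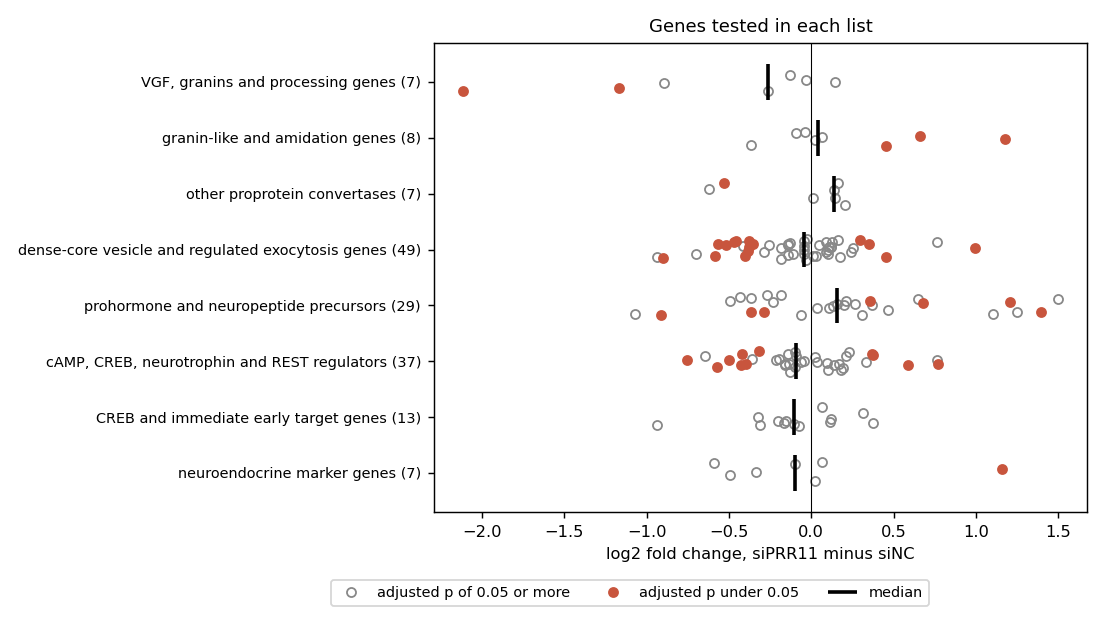
The log2FC (x axis) of each tested gene by list (number of genes in parentheses), filled where edgeR called the gene and open where not, with bars for medians. VGF is the leftmost point, and the medians of the other 7 lists lie between -0.10 and 0.16.

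Of 7 tested neuroendocrine markers, 1 was called (14.3%, beside 16.7% of all genes, median log2FC -0.10). DDC, the decarboxylase of monoamine synthesis, was at 0.294 and 0.310 CPM in siNC and 0.785 and 0.561 CPM in siPRR11 (log2FC 1.16, edgeR adjusted p = 0.0486). DESeq2 and limma did not call DDC, and edgeR did not call it when any 1 of the 4 libraries was left out. DDC is named here after its values were seen. SYP, the vesicle protein synaptophysin, was at 2.59 and 2.55 CPM in siNC and 2.04 CPM in both siPRR11 libraries (log2FC -0.34, edgeR adjusted p = 0.215). The abundant markers L1CAM, TUBB3 and ENO2 had a log2FC of 0.07, -0.10 and 0.02.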

How the data were processed

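RNA-seq libraries of siNC and siPRR11 ACHN cells (2 each) were grouped by their labels. According to the study's methods and the submitters' processing notes, reads of a stranded kit were trimmed (Trimmomatic 0.36), aligned to GRCh38 with STAR and counted with featureCounts (Subread 1.5.1). The authors deposited raw read counts per gene, and RPKM values of the same genes, which divide the count by exonic length and by the library total. The annotation release and the strand setting are not given in the sources used here.

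Counts were analysed with edgeR 4.0.16 in R 4.3.3 (TMM factors between 0.983 and 1.02, filterByExpr, quasi-likelihood test, condition as the only term), with Benjamini-Hochberg adjustment over 21630 genes. The SE was taken as |log2FC| over the root of F. DESeq2 1.42.0 and limma 3.58.1 (trend, on log2 of RPKM plus 1 or 0.1) were alternatives, as were RLE size factors, no filter, at least 10 counts in every library, a replicate block, and each library left out in turn. Simulated data for siPRR11 against siNC held 200 changed genes among 21241. There, edgeR recovered 99% of 2-fold and 100% of 4-fold changes and called 25 unchanged genes (DESeq2 12 and limma 10, among 21630 genes). The changed genes all had a mean log2 CPM of 1 or more, and the libraries were drawn independently. Recovery of lower genes, and the effect of replicate differences shared between the groups, were not tested. Libraries of a group differed by more than sampling noise (chi-square per degree of freedom 19.0 and 12.9), and each was treated as 1 replicate. This spread does not show whether they came from separate cultures. With 2 libraries per group, an SD rests on a pair of values.

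Genes named outside the 9 are PRR11, up to 4 rises and 4 falls per list (called by edgeR, mean log2 CPM 0 or more, groups apart), genes within 50000 bases of VGF, and the 5 nearest profiles. PCSK1N, PAM, MBTPS1, BDNF, CREB1, REST, NTRK2, NTRK3, FOS, EGR1, NR4A2, PER2 and the markers were named after their values were seen. The 9 genes and all lists were chosen with earlier results of these data known. Results for some genes that this rule would name are not reported here. Symbols absent from the count table were also tried under older names.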

Additional observations from a re-analysis of the deposited data

How the results depend on the processing

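The log2 fold change of VGF stayed between -2.20 and -2.03 in all alternatives but limma on log2(RPKM + 1), where it was -1.90, a scale that compresses low values. The count of genes called, 3622, was 1775 and 1878 with limma on log2(RPKM + 1) and log2(RPKM + 0.1), where 61.5% and 61.3% of the calls were higher in siPRR11, against 45.4%. It ranged from 2172 to 4590 without single libraries, with 2172 and 2393 without siPRR11 library 1 and 2. Such fits leave 1 library in a group, which is assumed to vary like the others.

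The labels share replicate numbers, but nothing says that a number marks a shared culture or day. Replicate differences of the 2 groups correlated over 14193 genes (r = 0.50, genes not being independent). With the replicate block, 6988 genes were called, and the lists gave 12 precursors, 2 convertases and 3 CREB targets. The block added SCG5 (-0.26 on the log2 scale) to VGF and CHGB, so that 3 of the 7 tested genes were called.

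With limma on log2(RPKM + 1) and log2(RPKM + 0.1), 3 and 4 vesicle genes, 3 and 4 precursors, 3 and 5 regulators, 0 convertases and 0 neuroendocrine markers were called. DESeq2 called 0 neuroendocrine markers, and fits without single libraries called 0 to 1, where the 1 was a fall and not DDC. Without the filter on low counts, 1 CREB target was called. Without single libraries, the lists gave 7 to 17 vesicle genes, 2 to 11 precursors, 6 to 13 regulators and 2 to 4 CREB targets. For 42 single genes, 433 of 499 values under an alternative kept direction and call or stayed within 1 standard error. Another 55 lost the call, 2 gained it and none of the called genes changed sign. The remaining 9 moved by more than 1 standard error, among them values of CHGB, SCG3, SCG5 and PCSK1. Halving the counts, an alternative chosen after seeing the data, called 3820 genes. With at most 38 counts in any library, SCG2, SCG3, PCSK1 and CHGA allow no statement on direction.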
